A study of Mus musculus with 24 samples.

Results

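Expression of 10 imprinted growth genes was described in cultured fibroblasts of mouse embryos (MEFs), cells that make connective tissue. The genes were H19, Igf2, Dlk1, Meg3, Mest, Peg3, Plagl1, Cdkn1c, Grb10 and Ndn, and they were taken by name from the 55487 genes of the deposited count table. All 10 passed the filter on low counts, which left 15828 genes for testing.

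An imprinted gene is expressed from 1 of its parental copies, which is set by DNA methylation laid down in the egg or the sperm. Genes active on the paternal copy tend to promote growth of the embryo and genes active on the maternal copy tend to restrain it. Among the 10, Igf2, Dlk1, Mest, Peg3, Plagl1 and Ndn are known as paternally expressed, and H19, Meg3, Cdkn1c and, outside neurons, Grb10 as maternally expressed. The deposited values sum over both copies, so the parental origin of the RNA was not measured.

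Poly(A) RNA was sequenced from wild-type (WT) MEFs and from MEFs whose label is a knockout (AMPK KO) of AMPK, the AMP-activated kinase by which cells sense low energy. The study's methods describe the latter as lacking both catalytic subunit genes, Prkaa1 and Prkaa2. RNA of both was counted in AMPK KO DMSO. Prkaa1 was at 78 to 82.6 CPM (counts per megaread of the scaled library total) in WT DMSO and at 66.9 to 73.3 CPM in AMPK KO DMSO, a log2 fold change of -0.19 (adjusted p = 0.001 in edgeR) under the fold change of a call. Prkaa2 was at 3.22 to 5.71 and 2.34 to 4.48 CPM, with overlap, and was called lower (-0.56, adjusted p = 0.015). Which exons were deleted is not given in the sources used here, so these whole-gene levels do not check the label AMPK KO. Cells of each genotype received vehicle (DMSO), MK-8722, a small-molecule AMPK activator, or torin1, an inhibitor of the kinase MTOR, which gave 6 groups of 4 libraries. The labels give neither dose nor duration. Within each group the 4 libraries came from 4 passages, which were passages 12 to 15 for the WT line and passages 16 to 19 for AMPK KO. The lines shared no passage and the methods name 1 source of cells per genotype, so the loss of AMPK, the line and the passage range cannot be told apart in any comparison of AMPK KO with WT.

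Total estimated counts were between 26900240 and 34192685 per library. The fibroblast genes Col1a1, Vim and Fn1 were present in both lines. Col1a2 was at 1760 to 3230 CPM in WT DMSO and at 21.3 to 47.3 CPM in AMPK KO DMSO. Lum and Tcf21 were at or near 0 throughout, and Dcn had at most 11 counts in any library. The summed level of 14 fibroblast markers ran from 11400 to 16200 CPM in WT DMSO and from 4830 to 5410 in AMPK KO DMSO. Of the 11 markers tested, 10 were called lower in AMPK KO DMSO and 1 higher, against 26% and 30.9% of all genes. Lists of 6 liver and 8 trophoblast markers, tissues in which several of the 10 genes are abundant, summed to at most 0.481 and 1.91 CPM in any library, with Hnf4a and Tpbpa at 0 in all. The largest other sums in DMSO were those of 6 neural markers (126 to 144 CPM in WT, 128 to 136 in AMPK KO) and 8 muscle markers (33.2 to 37.2 and 38.8 to 43.3), and 6 fat cell markers summed to 3.96 to 5.46 CPM in WT and 12.9 to 14.6 in AMPK KO. The muscle sums were mostly those of Pax3, at means of 35.2 CPM in WT DMSO and 39.6 CPM in AMPK KO DMSO. Myod1, Myf5 and Myog had at most 3 counts in any library. The neural sums were mostly those of Tubb3 and Map2, and they do not show Sox2, a transcription factor of neural and other stem cells that was singled out after its values were seen. Sox2 had 0 to 2 counts in every WT library, and in AMPK KO it was at 14.5 ± 0.161 CPM in DMSO, 9.99 ± 0.543 in MK-8722 and 7.75 ± 0.609 in torin1 (SD, n = 4). Epithelial (1.49 to 2.41 and 3.21 to 4.79), endothelial (0.948 to 1.54 and 1.77 to 2.2) and macrophage markers (1.98 to 2.85 and 1.34 to 2.23) were low, while the endothelial sum was 4.63 to 8.84 CPM in WT MK-8722. Of that sum Kdr alone was 4.28 to 8.41 CPM. The RNA of Xist silences an X chromosome in female cells. It lay between 281 and 511 CPM in the WT libraries and at 1 to 3 counts in the AMPK KO libraries. The Y chromosome genes Ddx3y, Eif2s3y, Kdm5d and Uty had 0 or 1 count in each WT library. In the AMPK KO libraries they had 2 to 23, 4 to 19, 3 to 16 and 1 to 8 counts. The part of these differences between the lines in the results below was not tested, and in bulk RNA fewer cells of a type and less RNA per cell cannot be told apart.

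The sequences at the starts of 4 of the genes are shown because their RNA differed most between the lines or between the drugs. Each window is 300 bases long, lies mostly before and ends shortly after a gene start in RefSeq, on the build GRCm38.p6, and is printed on the strand of the gene. Capitals mark TGCCGC or its reverse complement GCGGCA, the letters that ZFP57, a zinc finger protein that protects imprints, is known to recognise. For Mest the upstream start at chr6:30733256-30733555 and the downstream start at chr6:30737800-30738099 are set beside each other, both on the plus strand. For Grb10 the upstream start at chr11:12037371-12037670 and the downstream start at chr11:12027922-12028221 are on the minus strand. Meg3 is shown at chr12:109540746-109541045 and Plagl1 at chr10:13090582-13090881, both on the plus strand.
Mest upstream: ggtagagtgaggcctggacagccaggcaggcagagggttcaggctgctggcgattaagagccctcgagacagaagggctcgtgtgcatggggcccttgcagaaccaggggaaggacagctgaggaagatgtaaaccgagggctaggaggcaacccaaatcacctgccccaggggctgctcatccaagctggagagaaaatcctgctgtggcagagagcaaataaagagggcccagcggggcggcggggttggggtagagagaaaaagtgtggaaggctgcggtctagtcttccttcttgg
Mest downstream: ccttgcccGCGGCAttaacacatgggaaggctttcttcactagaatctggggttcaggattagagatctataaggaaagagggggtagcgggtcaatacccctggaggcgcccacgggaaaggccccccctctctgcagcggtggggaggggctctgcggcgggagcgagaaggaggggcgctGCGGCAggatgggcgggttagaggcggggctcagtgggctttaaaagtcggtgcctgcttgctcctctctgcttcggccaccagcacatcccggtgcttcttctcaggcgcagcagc
Grb10 upstream: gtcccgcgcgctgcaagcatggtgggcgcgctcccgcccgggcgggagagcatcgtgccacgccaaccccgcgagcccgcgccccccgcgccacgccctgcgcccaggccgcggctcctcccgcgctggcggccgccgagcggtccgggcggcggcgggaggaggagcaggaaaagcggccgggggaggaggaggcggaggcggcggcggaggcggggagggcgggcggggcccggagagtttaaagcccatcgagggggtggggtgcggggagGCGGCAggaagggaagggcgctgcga
Grb10 downstream: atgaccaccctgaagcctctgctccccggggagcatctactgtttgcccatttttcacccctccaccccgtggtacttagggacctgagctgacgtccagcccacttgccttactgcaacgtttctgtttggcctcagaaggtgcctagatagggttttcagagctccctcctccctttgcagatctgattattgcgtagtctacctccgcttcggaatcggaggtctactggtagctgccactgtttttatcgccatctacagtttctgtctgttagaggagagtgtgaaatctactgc
Meg3: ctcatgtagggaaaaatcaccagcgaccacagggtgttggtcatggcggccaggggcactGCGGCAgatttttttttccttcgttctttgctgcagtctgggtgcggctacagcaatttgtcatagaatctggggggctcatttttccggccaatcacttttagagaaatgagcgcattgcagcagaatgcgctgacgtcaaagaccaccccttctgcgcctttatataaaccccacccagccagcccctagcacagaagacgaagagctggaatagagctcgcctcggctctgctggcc
Plagl1: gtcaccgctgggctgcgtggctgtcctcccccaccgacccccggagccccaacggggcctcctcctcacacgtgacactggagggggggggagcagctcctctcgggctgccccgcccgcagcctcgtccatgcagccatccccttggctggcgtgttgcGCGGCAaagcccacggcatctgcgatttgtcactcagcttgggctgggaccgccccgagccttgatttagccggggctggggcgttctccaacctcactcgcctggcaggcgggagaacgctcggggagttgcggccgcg

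The downstream Mest window held 17 CG dinucleotides and 2 matches to the ZFP57 letters on either strand, and the upstream window held 8 CG dinucleotides and 0 matches. The upstream Grb10 window held 45 CG dinucleotides, as many as or more than 98.4% of all windows, and 1 match, against 9 and 0 in the downstream window. The Meg3 window shown had 13 CG dinucleotides and 1 match, and that of Plagl1 had 26 and 1. A second Meg3 window, chr12:109545148-109545447, is not shown and had 1 CG dinucleotide and 0 matches. Over all 32851 RefSeq windows of 300 bases the median was 7 CG dinucleotides and 11.6% held the letters on either strand. Of the 15 windows of 8 of the 10 genes, 6 held them. These include 2 overlapping Mest windows, chr6:30737800-30738099 and chr6:30737803-30738102, which hold the same 2 matches. A match describes the letters alone, and a window without one says nothing about the protein.

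The 10 genes lie at 7 places in the genome (GRCm38, GENCODE annotation, whole genes). H19 (chr7:142575529-142578143, minus strand) and Igf2 (chr7:142650766-142666816, minus strand) are neighbours with 72622 bases between them, and Cdkn1c (chr7:143458339-143461050, minus strand) follows 791522 bases beyond Igf2. Dlk1 (chr12:109452823-109463336, plus strand) and Meg3 (chr12:109541001-109571726, plus strand) are 77664 bases apart. Mest (chr6:30723547-30748465, plus strand), Peg3 (chr7:6703892-6730431, minus strand), Plagl1 (chr10:13060504-13131694, plus strand), Grb10 (chr11:11930508-12038683, minus strand) and Ndn (chr7:62346569-62350262, plus strand) stand apart from the others. H19 and Meg3 are long non-coding RNA genes and the others code for proteins. Exons of annotated genes on the opposite strand overlap those of Igf2 (Igf2os), Mest (Copg2), Meg3 (Gm26906), Cdkn1c (Gm44732), H19 (Gm27483 and Gm27786) and Plagl1 (Gm27741). The sources used here do not say whether counting used the strand. Within the overlapping exons, reads of these genes and of their partners therefore cannot be told apart. On the same strand, exons of the protein-coding gene Gm49394 overlap those of Igf2.

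**Figure D1:**
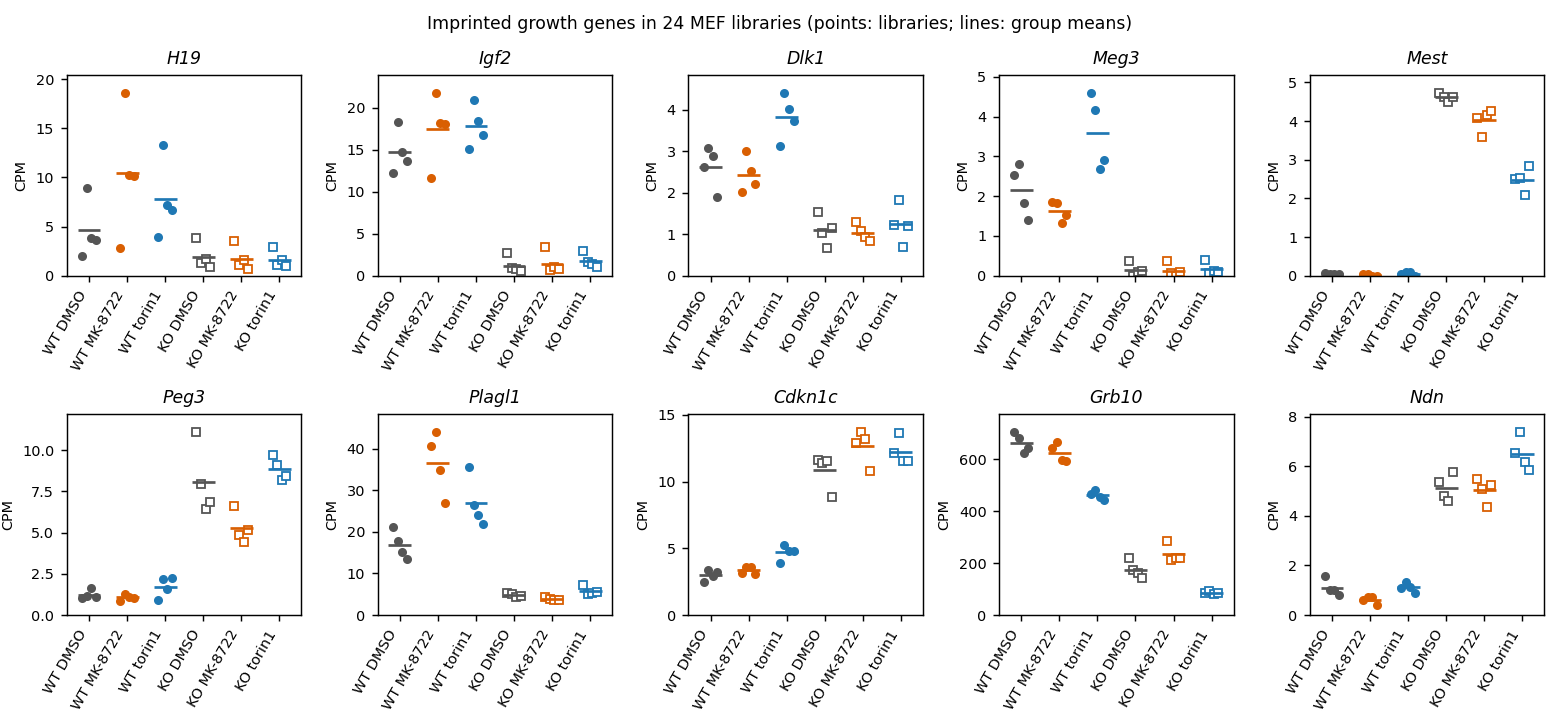
Normalised levels of the 10 genes in CPM (vertical axes, each from 0) in the 24 libraries, by group. Points are libraries in order of passage, circles for WT and squares for AMPK KO, and short lines are group means. Igf2, Dlk1, Meg3, Plagl1 and Grb10 sit lower and Mest, Peg3, Cdkn1c and Ndn sit higher in AMPK KO in every treatment, without overlap.

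On a scale that corrects for transcript length (TPM), Grb10 was the most abundant of the 10 in every group. Its level was 226 ± 11.1 TPM in WT DMSO and 62.8 ± 11.2 TPM in AMPK KO DMSO (SD, n = 4). In WT DMSO it was followed by Plagl1 at 6.95 ± 1.29, Igf2 at 6.6 ± 1.68, H19 at 4.41 ± 3.57, Cdkn1c at 3.69 ± 0.318, Dlk1 at 2.85 ± 0.811 and Meg3 at 2.27 ± 0.674 TPM, and each gene of this run overlapped the next. Ndn, Peg3 and Mest were each under 1 TPM there. The order was different in AMPK KO DMSO, where Cdkn1c was second at 14.4 ± 1.32 TPM and Mest next at 3 ± 0.101 TPM, both clear of the next gene. Igf2 at 0.682 ± 0.404 and Meg3 at 0.0886 ± 0.121 TPM were the lowest there, with overlapping ranges.

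The first comparison asked how the lines differed under vehicle. Of the 10 genes, 4 were called higher in AMPK KO (Mest, Peg3, Cdkn1c and Ndn) and 5 lower (Igf2, Dlk1, Meg3, Plagl1 and Grb10), and H19 was not called. A call required an adjusted p under 0.05 in edgeR's quasi-likelihood test and a fold change of at least 1.2. By this rule 56.9% of all genes tested were called between the lines, 30.9% higher and 26% lower, so 9 of 10 is to be read against a large background. The libraries of the lines did not overlap for 9 of the 10 genes, against 64% of all genes. The median log2 fold change of the 10 was -1.25, and that of all genes was 0.02.

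Igf2 encodes a fetal growth factor that signals through the IGF1 and insulin receptors. Its levels in WT DMSO were 12.2, 18.3, 14.8 and 13.7 CPM at passages 12, 13, 14 and 15, and in AMPK KO DMSO they were 2.65, 0.906, 0.75 and 0.556 CPM at passages 16, 17, 18 and 19. Every AMPK KO library was below every WT library, and the highest of them was that of passage 16. On the log2 scale the fold change was -3.58 ± 0.391 (SE of the fit), with an adjusted p of 1.8e-08 in edgeR, and it was -4.32 without AMPK KO DMSO replicate 3, the library of passage 16. The difference was of like size in MK-8722 (-3.57) and torin1 (-3.35), where the adjusted p values were 9.9e-09 and 2.1e-08, and leaving out AMPK KO MK-8722 replicate 2, also of passage 16, gave -4.46 in MK-8722.

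H19, the non-coding RNA made next to Igf2 under a shared control region, varied more. It was at 2.04, 8.89, 3.83 and 3.67 CPM in WT DMSO (passages 12 to 15) and at 3.84, 1.33, 1.65 and 0.85 CPM in AMPK KO DMSO (passages 16 to 19). The groups overlapped, since the highest AMPK KO library was above 3 of the 4 WT libraries. The log2 fold change of -1.24 ± 0.575 missed the threshold (adjusted p = 0.058). In MK-8722 and torin1 H19 was called lower in AMPK KO, with log2 fold changes of -2.6 and -2.25 (adjusted p = 0.00026 and 0.0012 in edgeR), and with -3.25 in MK-8722 without AMPK KO MK-8722 replicate 2. With passage within each line in the model, the DMSO difference was -1.27 ± 0.164 with an adjusted p of 7.1e-07 (58% of all genes were called in that fit), and over all 22 alternative fits it lay between -1.84 and -0.71 and was called in 7. The difference was also called without WT DMSO replicate 4 (-1.51, adjusted p = 0.027) and without AMPK KO DMSO replicate 3 (-1.84, adjusted p = 0.015), the libraries of passages 12 and 16.

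Meg3 and Dlk1 share a cluster on chromosome 12. Meg3, a non-coding RNA of the maternal copy, was at 2.54, 2.82, 1.83 and 1.41 CPM in WT DMSO and at 0.366, 0, 0.09 and 0.131 CPM in AMPK KO DMSO, in order of passage. These AMPK KO values stand for 12, 0, 3 and 4 counts, and passage 16 held most of them. In log2 terms the difference was -3.82 ± 0.531 (adjusted p = 8.3e-07), and it was -3.6 in MK-8722 and -4.39 in torin1. Without the AMPK KO library of passage 16 these values were -4.8 in DMSO, -4.89 in MK-8722 and -5.25 in torin1. Over the 12 libraries of each line Meg3 had 872 counts in WT and 58 in AMPK KO.

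Dlk1 encodes a membrane protein related to the Notch ligands that keeps precursor cells from maturing into fat cells. It was at 2.61, 3.07, 2.88 and 1.91 CPM in WT DMSO and at 1.53, 1.04, 0.66 and 1.14 CPM in AMPK KO DMSO. The groups did not overlap, and the gap between the nearest libraries was small. The log2 fold change of -1.26 ± 0.243 (adjusted p = 6.9e-05) was the smallest in size among the called genes. Rian, a further non-coding RNA of this cluster, was singled out after its values were seen, and had a log2 fold change of -3.7 ± 0.387 (adjusted p = 8.8e-09) and a mean of 1.6 CPM over all libraries.

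Grb10 and Cdkn1c, both restraints on growth, differed in opposite directions. Grb10 encodes an adaptor that dampens signalling from the insulin and IGF1 receptors and that MTOR complex 1 phosphorylates. Its levels were 705, 684, 624 and 644 CPM in WT DMSO and 218, 172, 162 and 144 CPM in AMPK KO DMSO. All 4 AMPK KO libraries lay far below the WT libraries, and the log2 fold change was -1.93 ± 0.0963 (adjusted p = 1.3e-14). Cdkn1c encodes p57Kip2, an inhibitor of cyclin-dependent kinases. It was at 2.48, 3.4, 2.91 and 3.21 CPM in WT DMSO and at 11.6, 11.4, 11.5 and 8.83 CPM in AMPK KO DMSO, again without overlap, with a log2 fold change of 1.85 ± 0.116 (adjusted p = 8.4e-13).

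The difference of largest size was that of Mest, which encodes a member of the alpha/beta hydrolase family. In WT DMSO it had 2, 1, 1 and 1 counts, and in AMPK KO DMSO 155, 143, 150 and 141 counts, or 4.5 to 4.73 CPM. Mest was therefore at the limit of detection in every WT library and at an even level in the AMPK KO libraries. The ratio of the summed counts, corrected for library size, was 107 (95% interval 45.4 to 330), and it was 44.1 (21.2 to 111) in torin1. In MK-8722, with 520 counts against 2, the interval of the ratio ran from 60.3 to 1810. These intervals cover counting error alone. The fitted log2 fold change of 6.61 (adjusted p = 8.3e-16) depends on the prior count of the fit, and was 5.02 with transcript lengths as an offset. Copg2, whose exons overlap Mest on the other strand, was at 25.4 ± 1.3 CPM in WT DMSO and 24.1 ± 1.42 CPM in AMPK KO DMSO (SD, n = 4) and was not called.

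The other paternally expressed genes went both ways. Peg3, which encodes a zinc finger protein, was at 1.04, 1.17, 1.61 and 1.08 CPM in WT DMSO and at 11.1, 7.93, 6.45 and 6.84 CPM in AMPK KO DMSO, with a log2 fold change of 2.72 ± 0.217 (adjusted p = 7.6e-11). Ndn, which encodes necdin, a growth suppressor of the MAGE family, was at 1.57, 1.02, 1.02 and 0.793 CPM in WT DMSO and at 5.37, 4.82, 4.62 and 5.76 CPM in AMPK KO DMSO (log2 fold change 2.21 ± 0.167, adjusted p = 2.8e-11). Neither gene's groups overlapped. Plagl1, a zinc finger transcription factor that can arrest the cell cycle, went the other way. It was at 21.1, 17.8, 15.2 and 13.5 CPM in WT DMSO and at 5.31, 5.08, 4.35 and 4.61 CPM in AMPK KO DMSO, a log2 fold change of -1.81 ± 0.172 (adjusted p = 1.8e-09) without overlap.

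Under each drug all 10 genes were called between the lines, 4 higher and 6 lower in AMPK KO. The share of all genes called was 58.9% in MK-8722 (31.4% higher, 27.5% lower) and 54.6% in torin1 (31% higher, 23.6% lower). Each of the 9 genes called in DMSO had the same direction in all 3 treatments. Their groups did not overlap in torin1 for all 10 genes (background 61.8%) and in MK-8722 for 9 (background 63.7%), the exception being H19.

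**Figure D2:**
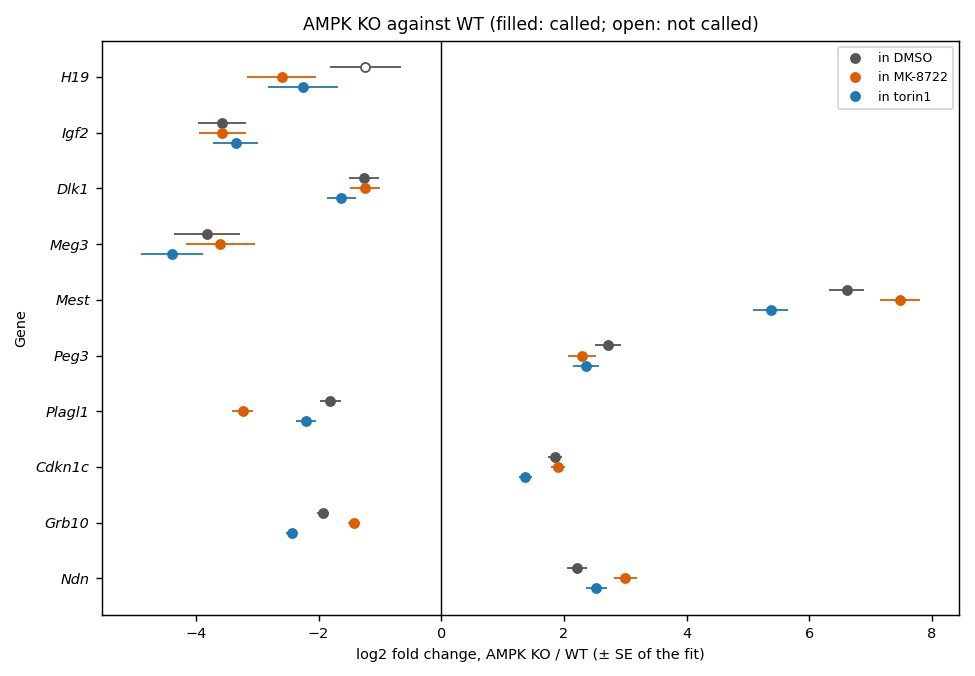
Log2 fold change of AMPK KO against WT (horizontal axis, ± SE of the fit) for each gene (vertical axis) in DMSO, MK-8722 and torin1. Filled points were called and the open point, H19 in DMSO, was not. Mest has the highest value in each treatment, 6.61, 7.48 and 5.37, which rest on at most 3 counts per WT library, and Meg3 has the lowest, -3.82, -3.6 and -4.39.

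The transcript tables were used to ask whether the lines differed in which start of a gene was used. Of the 93 transcripts of the 10 genes, 92 were in the GENCODE annotation. In AMPK KO the 3 Mest transcripts that start in the downstream window above took 94.5 ± 6.99% of the gene's TPM (SD, n = 12) and 1395 estimated reads over 12 libraries. The 2 transcripts at the upstream start took 3.64 ± 5.9% and 39 reads. In WT the same starts had 4 and 7 reads in all over the libraries with any Mest TPM, so no preference could be read there. Nearly all Mest RNA of AMPK KO was thus assigned to the downstream start.

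Grb10 had a like mix of transcripts in both lines at different levels. The transcript Grb10-201, which starts in the upstream window, took 67.5 ± 2.91% of the TPM in WT DMSO and 67.4 ± 2.49% in AMPK KO DMSO (SD, n = 4). Grb10-203, at the downstream start, took 15.9 ± 1.15% and 16.2 ± 1.39%. For Igf2 the transcript Igf2-205 took 38.4 ± 7.22% and 43.2 ± 27%, and the one that starts at chr7:142661305 took 17.2 ± 5.02% and 4.56 ± 5.84%.

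Over 27 transcripts with at least 10% of their gene's TPM, 0 of 27 shares passed an adjusted p of 0.05 between WT DMSO and AMPK KO DMSO in a two-sided exact permutation test. At an unadjusted p under 0.05 there were 2, that Igf2 transcript and Mest-211, each at 0.029 in that exact permutation test, which is the smallest p that 4 against 4 libraries can give. The adjusted p of both in that test was 0.39. A few shares at this smallest p cannot pass the adjustment over 27, so 0 of 27 does not show that the shares were alike. Salmon splits reads of shared exons between transcripts by a model, and the Mest shares in WT rest on at most 2 counts per DMSO library.

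**Figure D3:**
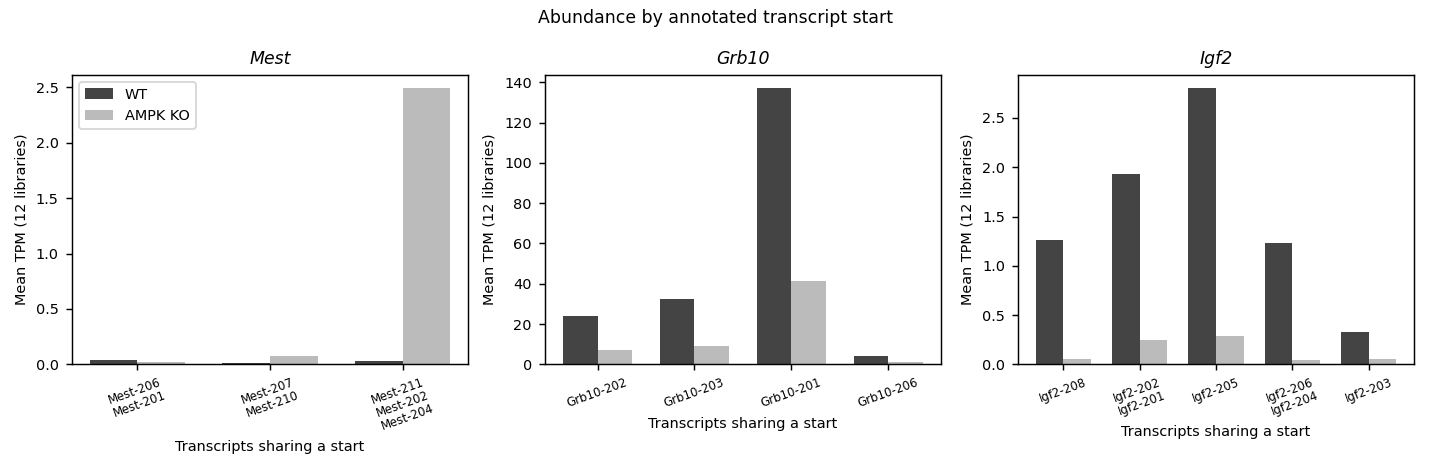
Mean TPM over 12 libraries of each line (vertical axes, bars from 0) of the transcripts that share an annotated start, for Mest, Grb10 and Igf2. In AMPK KO the Mest bar at the downstream start reaches 2.49 TPM, and for Grb10 every start is lower in AMPK KO than in WT, with Grb10-201 at 137 and 41.3 TPM.

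MK-8722 was then compared with DMSO within each line. In WT, 1 of the 10 genes rose (Plagl1) and 1 fell (Ndn), against 15.7% of all genes called (10% higher, 5.66% lower). In AMPK KO only Grb10 was called, as higher, against 1.56% of all genes (0.866% higher, 0.695% lower). The groups did not overlap for Plagl1 and Ndn in WT (background 25.5%) and for Mest, which was not called, in AMPK KO (background 11.7%). MK-8722 and torin1 were compared with the same DMSO libraries of each line, so their values are not independent of each other.

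Plagl1 had the clearest response to MK-8722. It rose from 21.1, 17.8, 15.2 and 13.5 CPM in WT DMSO to 40.6, 44, 34.9 and 27 CPM in WT MK-8722 at passages 12, 13, 14 and 15. Every treated library was above every vehicle library, and the ratio within a passage lay between 1.92 and 2.47. The log2 fold change was 1.11 ± 0.152 (adjusted p = 6e-06 in edgeR), and it was called in all 21 alternative fits. In AMPK KO MK-8722 Plagl1 was at 4.42, 3.97, 3.64 and 3.5 CPM, lower than DMSO of the same passage in 4 of 4 passages, with a log2 fold change of -0.32 ± 0.193 that was not called (adjusted p = 0.45). The test of the difference between the lines passed, at -1.43 ± 0.246 (adjusted p = 0.00026), and 12.8% of all genes were called in that test (5.12% higher, 7.66% lower).

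Ndn fell under MK-8722 in WT, from 1.57, 1.02, 1.02 and 0.793 CPM to 0.621, 0.74, 0.732 and 0.393 CPM. It was lower in 4 of 4 passages, and the groups did not overlap. Its log2 fold change was -0.83 ± 0.214 (adjusted p = 0.0051), and without the passage 12 libraries, which held the highest vehicle value, it was -0.6 and no longer called (adjusted p = 0.065). In AMPK KO the log2 fold change of Ndn was -0.03 ± 0.143. The difference between the lines, 0.8 ± 0.257, was called (adjusted p = 0.035), and stayed so in 18 of 30 alternative fits. It was lost without any 1 of 8 libraries, from 0.57 (adjusted p = 0.13) without WT DMSO replicate 4 and 0.64 (0.1) without WT MK-8722 replicate 3 to values of 0.75 to 0.79 without WT MK-8722 replicate 2, AMPK KO DMSO replicate 2 or 4, or AMPK KO MK-8722 replicate 1, 2 or 3.

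Grb10 rose under MK-8722 in AMPK KO, from 218, 172, 162 and 144 CPM to 286 CPM at passage 16 and to 211 CPM or slightly more at the other 3 passages. The increase was present in 4 of 4 passages, by 1.23 to 1.51 times, although the groups overlapped because passage 16 was high in both. The log2 fold change of 0.43 ± 0.0939 was called (adjusted p = 0.016). It was lost without AMPK KO DMSO replicate 1 (adjusted p = 0.069) or replicate 4 (0.059), and in a fit of the compared groups alone (0.083). In WT MK-8722 Grb10 was at 642, 668, 596 and 594 CPM, a log2 fold change of -0.09 ± 0.0926, and the lines differed by 0.51 ± 0.132 (adjusted p = 0.0089).

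The change of H19 under MK-8722 in WT, 1.19 ± 0.516 on the log2 scale, was not called (adjusted p = 0.091). Its values in MK-8722 were 2.81, 18.6, 10.2 and 10.1 CPM at passages 12 to 15, above DMSO of the same passage in 4 of 4 passages and by 1.38 to 2.75 times. The spread between passages was wider than this change. With passage in the model the log2 fold change was 1.16 ± 0.134 and was called (adjusted p = 1e-06), as were 18.4% of all genes. It was called, too, without WT DMSO replicate 2 (1.7, adjusted p = 0.027) or WT MK-8722 replicate 2 (1.5, adjusted p = 0.023). In AMPK KO H19 was lower than DMSO in 4 of 4 passages, by ratios of 0.767 to 0.994, and was not called in either fit. The difference between the lines was -1.35 ± 0.808 (adjusted p = 0.28), and with passage in the model -1.33 ± 0.228 (adjusted p = 2e-04, 17.6% of all genes called).

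Peg3 was lower under MK-8722 in 4 of 4 AMPK KO passages, at 6.59, 4.84, 4.41 and 5.18 CPM against 11.1, 7.93, 6.45 and 6.84 CPM in DMSO. The log2 fold change of -0.62 ± 0.184 was not called (adjusted p = 0.071), and with passage in the model it was -0.61 ± 0.117 and called (adjusted p = 0.0018), as were 4.61% of all genes. It was also called without AMPK KO MK-8722 replicate 2, of passage 16 (-0.75, adjusted p = 0.044). The remaining members were not called under MK-8722 in either line. In WT the log2 fold changes of Igf2, Dlk1, Meg3 and Cdkn1c were 0.24 ± 0.303, -0.1 ± 0.228, -0.39 ± 0.39 and 0.17 ± 0.128, and in AMPK KO they were 0.25 ± 0.485, -0.08 ± 0.262, -0.17 ± 0.785 and 0.22 ± 0.102.

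**Figure D4:**
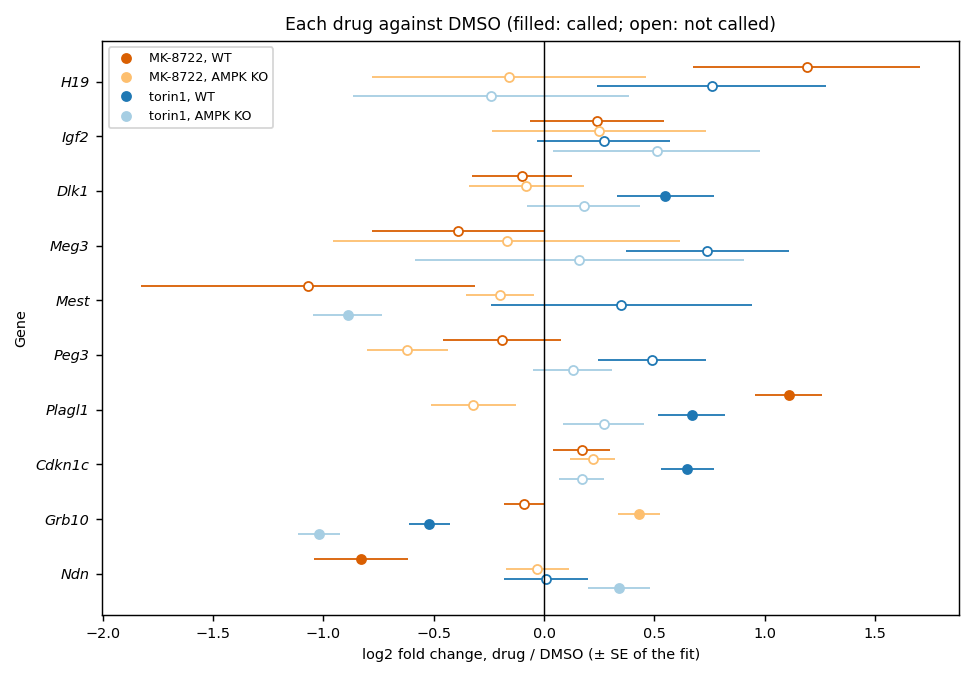
Log2 fold change of each drug against DMSO (horizontal axis, ± SE of the fit) for each gene (vertical axis) in WT and AMPK KO. Filled points were called. Plagl1 in WT MK-8722 is the highest called value at 1.11, and Grb10 in AMPK KO torin1 is the lowest at -1.02.

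Torin1 changed more of the 10 genes. In WT, 3 rose (Dlk1, Plagl1 and Cdkn1c) and Grb10 fell, against 47.6% of all genes called (26.6% higher, 21.1% lower). In AMPK KO, Ndn rose and Mest and Grb10 fell, against 43.5% of all genes (25.9% higher, 17.6% lower). The groups did not overlap for 4 of the 10 genes in WT (background 51.8%) and for 3 in AMPK KO (background 53.8%). These counts are below the background shares in the main fit, and the counts with passage in the model are not. With a replicate left out, 3 to 5 of the 10 genes were called in WT and 2 to 3 in AMPK KO. With passage in the model 8 of the 10 were called in WT and 5 in AMPK KO. The shares of all genes called in that fit were 49.6% and 45.8%.

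Grb10 fell in both lines. WT torin1 libraries had 467, 483, 456 and 445 CPM, all below the 624 to 705 CPM of WT DMSO. AMPK KO torin1 libraries had 85.5, 91, 81.2 and 85.6 CPM, all below the 144 to 218 CPM of AMPK KO DMSO. The ratio within a passage lay between 0.662 and 0.731 in WT and between 0.392 and 0.594 in AMPK KO. The log2 fold changes were -0.52 ± 0.0929 (adjusted p = 3.6e-05) and -1.02 ± 0.0957 (adjusted p = 3.8e-09). The larger fall in AMPK KO passed the test of the difference, -0.5 ± 0.133 (adjusted p = 0.019), a test in which 7.07% of all genes were called (4.15% higher, 2.92% lower) and no other member was. With passage in the model 4 members were called in this test, against 11.8% of all genes. They were Grb10 (-0.48 ± 0.0868, adjusted p = 0.00067), H19 (-1 ± 0.23, 0.0044), Cdkn1c (-0.47 ± 0.11, 0.0045) and Plagl1 (-0.41 ± 0.119, 0.021).

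Mest fell under torin1 in AMPK KO, from 4.73, 4.63, 4.5 and 4.61 CPM to 2.49, 2.52, 2.1 and 2.84 CPM. The groups did not overlap and the ratio within a passage was 0.467 to 0.616, with a log2 fold change of -0.89 ± 0.157 (adjusted p = 3.7e-05). In WT torin1 Mest had 1, 3, 3 and 0 counts, too few to show a change of this size. Ndn rose from 4.62 to 5.76 CPM in AMPK KO DMSO to 5.86 to 7.38 CPM in AMPK KO torin1, a log2 fold change of 0.34 ± 0.141 at an adjusted p of 0.046. This call held in 6 of 20 alternative fits, and was lost without AMPK KO DMSO replicate 2, 3 or 4 or without any 1 of the AMPK KO torin1 libraries (adjusted p = 0.062 to 0.24).

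Torin1 raised Cdkn1c in WT, from 2.48, 3.4, 2.91 and 3.21 CPM to 3.93, 5.27, 4.82 and 4.79 CPM. Treated and vehicle libraries did not overlap, and the log2 fold change was 0.65 ± 0.122 (adjusted p = 6.4e-05). In AMPK KO, where Cdkn1c started from 8.83 to 11.6 CPM, torin1 libraries had 12.1, 13.6, 11.5 and 11.5 CPM and the log2 fold change was 0.17 ± 0.102 (adjusted p = 0.16). The difference between the lines, -0.48 ± 0.159, missed the threshold (adjusted p = 0.056) and passed it in 11 of 30 alternative fits. Among these were the fits without WT DMSO replicate 2 (-0.54), WT torin1 replicate 4 (-0.56), AMPK KO DMSO replicate 1 (-0.56) or AMPK KO torin1 replicate 2 (-0.61), with adjusted p values of 0.024 to 0.043.

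Plagl1 rose under torin1 in WT to 35.7, 26.4, 24.1 and 21.8 CPM, a log2 fold change of 0.67 ± 0.152 (adjusted p = 0.00051), and was above DMSO of the same passage by 1.48 to 1.69 times. In AMPK KO its log2 fold change was 0.27 ± 0.184 and was not called (adjusted p = 0.22). Dlk1 rose in WT to 3.13, 4.41, 4.02 and 3.73 CPM (log2 fold change 0.55 ± 0.22, adjusted p = 0.035). That call held in 13 of 21 alternative fits and was lost without WT DMSO replicate 3 (adjusted p = 0.14) or 4 (0.067) and without WT torin1 replicate 2 (0.1) or 3 (0.062).

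H19, Igf2 and Meg3 were not called under torin1 in WT, with log2 fold changes of 0.76 ± 0.518, 0.27 ± 0.302 and 0.74 ± 0.369. Each was nevertheless above DMSO of the same passage in 4 of 4 passages, by 1.5 to 1.93, 1.14 to 1.24 and 1.47 to 2.06 times. With passage in the model all 3 were called, with adjusted p values of 3.2e-05, 0.015 and 0.0017, and Peg3 was called as well (0.46 ± 0.183, adjusted p = 0.033). Peg3 was above DMSO in 2 of 4 passages and below it in 2, with ratios of 0.891 to 2.08. The count of members called in WT torin1 was then 8, against 49.6% of all genes in that fit. In AMPK KO the same fit called Igf2 (0.57 ± 0.19, adjusted p = 0.014) and Plagl1 (0.27 ± 0.0961, adjusted p = 0.02), which brought the count to 5, against 45.8% of all genes. Without passage in the model, Peg3 in WT was called when WT DMSO replicate 1 (0.64, adjusted p = 0.045) or WT torin1 replicate 4 (0.69, adjusted p = 0.011) was left out, and Igf2 in AMPK KO when AMPK KO DMSO replicate 3 was (1.19, adjusted p = 0.047).

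Passage itself separated the libraries of a line for several members. Over the 3 terms for passage, 3 of the 10 genes passed an adjusted p of 0.05 in WT (H19, Igf2 and Plagl1) against 19.1% of all genes. In AMPK KO 6 passed (H19, Igf2, Meg3, Peg3, Cdkn1c and Grb10) against 13% of all genes. Each passage holds 1 library of each treatment, so passage and treatment were balanced within a line.

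H19 varied with passage in both lines. Its mean over 3 treatments in WT was 2.93 CPM at passage 12, 13.6 at passage 13, 7.07 at passage 14 and 6.83 at passage 15 (adjusted p = 6.9e-08). In AMPK KO the means were 3.42, 1.16, 1.62 and 0.837 CPM at passages 16, 17, 18 and 19 (adjusted p = 2.3e-05). The lowest WT passage thus stood under the highest AMPK KO passage. Igf2 had the same highest and lowest passages in each line as H19, with means of 13, 20.4, 17.1 and 16.2 CPM in WT (adjusted p = 0.002) and of 2.97, 1.09, 1.04 and 0.778 CPM in AMPK KO (adjusted p = 2.3e-05). Across the 12 libraries of a line, which share treatments and passages, Pearson's r of H19 and Igf2 in log2 CPM was 0.97 in WT and 0.84 in AMPK KO.

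Meg3 in AMPK KO had 12 or 13 counts in each passage 16 library and 0 to 4 counts in each later one, for means of 0.376, 0.0415, 0.0701 and 0.104 CPM (adjusted p = 0.0022). H19, Igf2 and Meg3 thus all had their highest AMPK KO mean at passage 16. So did Dlk1 (1.35 CPM), Peg3 (9.13), Plagl1 (5.65), Grb10 (196) and Ndn (5.8). Cdkn1c was highest at passage 17 (12.9 CPM) and Mest at passage 19 (3.91 CPM). Plagl1 in WT was highest at passage 12 and lowest at passage 15, at means of 32.5, 29.4, 24.7 and 20.7 CPM (adjusted p = 3.5e-05). The AMPK KO calls of Peg3, Cdkn1c and Grb10 were the weaker ones, at adjusted p values of 0.034, 0.035 and 0.0098, and without AMPK KO DMSO replicate 3 or AMPK KO MK-8722 replicate 2, both of passage 16, 3 members in all were called in that line. Without the passage 16 libraries the difference of Igf2 between the lines in DMSO was -4.32 on the log2 scale.

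**Figure D5:**
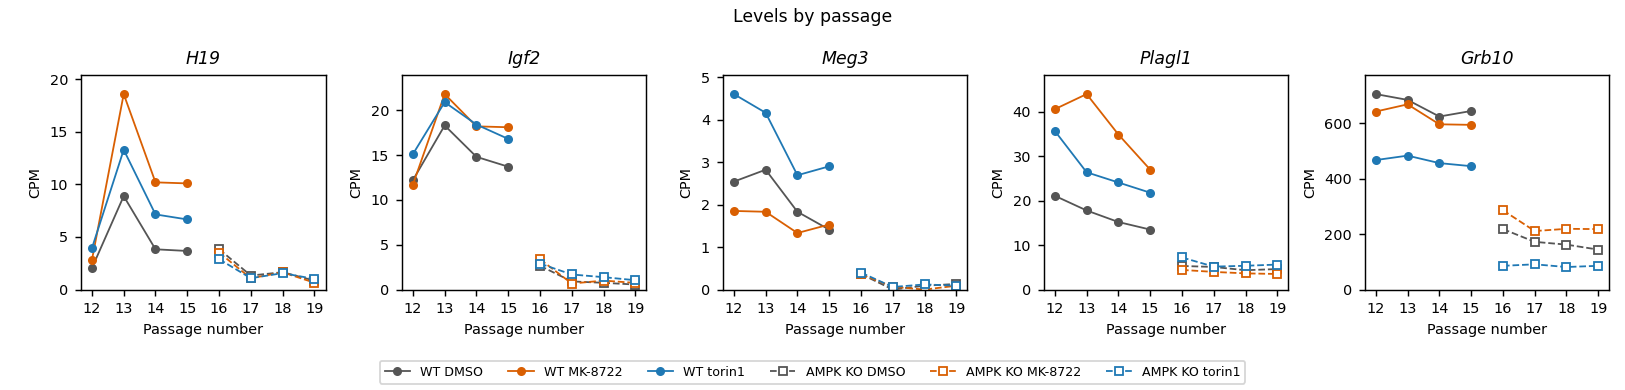
CPM (vertical axes, each from 0) of H19, Igf2, Meg3, Plagl1 and Grb10 against passage number. Solid lines and circles are WT at passages 12 to 15, dashed lines and squares are AMPK KO at passages 16 to 19, and colours are treatments. H19 in WT peaks at passage 13 in all 3 treatments. In AMPK KO, H19, Igf2, Meg3 and Plagl1 are highest at passage 16 in all 3 treatments, and Grb10 is in DMSO and MK-8722.

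The genes most like each member were found by Pearson's r of log2 CPM centred within each line over 24 libraries, as a description. Grb10 was most like Phf10 and Aldh1l2 (r = 0.95 for both), and Plagl1 was most like Tbcel (0.9) and Nectin1 (0.88). Igf2 was most like Bgn (0.9) and Lox (0.82), and Meg3 like Bgn and Fam20a (0.81 for both). H19 was most like Cbr2 (0.79) and Spsb2 (0.78), Dlk1 like Gpc2 (0.76) and Sbk1 (0.75), and Mest like Klf4 (0.77) and Fcf1 (0.75). Peg3 was most like Stx5a and Cyp1b1 (0.82 for both), Cdkn1c like Tpcn2 (0.85) and Nudt8 (0.84), and Ndn like Arhgap1 (0.81) and Ncoa5 (0.8). These are the highest values among all genes compared, and drug and passage differences were left in. Mest in WT (0 to 3 counts per library) and Meg3 in AMPK KO (0 to 13) rest on few counts.

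Other imprinted genes, the IGF pathway and the machinery that keeps imprints were followed beside the 10 genes. Of 50 other imprinted genes 37 were tested, and 9 were called higher and 16 lower in AMPK KO DMSO, with a median log2 fold change of -0.11, against 30.9% and 26% of all genes. Among those with a mean of at least 5 CPM the largest falls were those of Snrpn (-3.38), Impact (-1.75) and Peg10 (-1.61). Snrpn is a spliceosome protein gene, Impact a regulator of the translation kinase GCN2, and Peg10 a retrotransposon-derived gene. The rises at that mean were Sfmbt2 (0.64) and H13 (0.46). Genes under that mean, singled out after their values were seen, differed in both directions. Nnat had 1 to 2 counts in each WT DMSO library and 113 to 163 in AMPK KO DMSO. Airn had 30 to 60 counts in WT DMSO and 0 to 2 in AMPK KO DMSO. Under MK-8722 in WT 4 rose and 5 fell, led by Impact (1.18) and Peg13 (-0.77), and in AMPK KO 1 rose and 2 fell, among them Gab1 (-0.31). The shares of all genes called were 15.7% and 1.56%. Under torin1 8 rose and 5 fell in each line, against 47.6% of all genes called in WT and 43.5% in AMPK KO, led by Ppp1r9a (1.08) and Snrpn (-0.63) in WT and by Ppp1r9a (0.96) and Peg10 (-0.75) in AMPK KO.

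Of 21 genes of the IGF axis 15 were tested. In AMPK KO DMSO 2 were called higher and 8 lower, and the median was -0.38, against 30.9% and 26% of all genes. Those lower included the protease gene Htra1 (-1), the receptor gene Igf1r (-0.94) and the adaptor gene Irs1 (-0.88), and the binding protein gene Igfbp6 was higher (3.02). Igf2 and the receptor of its growth signal, Igf1r, were thus both lower in AMPK KO. Under MK-8722 in WT 2 rose and 1 fell, led by Igfbp6 (-0.84) and Irs2 (0.43), and in AMPK KO Stc2 rose (1.26), with 15.7% and 1.56% of all genes called. Under torin1 5 rose and 3 fell in WT and 4 rose and 3 fell in AMPK KO (47.6% and 43.5% of all genes called), led in both by Stc2 (-3.96 and -3.15), a secreted inhibitor of IGF release, and by Irs2 (1.07 and 1.13).

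Of 18 genes that maintain imprints or DNA and histone methylation 16 were tested, and 3 were called higher and 3 lower in AMPK KO DMSO, with a median of -0.04. These 6 of 16 compare with 56.9% of all genes called. Zfp57, whose letters are marked in the windows above, was at 44.2 ± 2.54 CPM in WT DMSO and 20 ± 0.796 CPM in AMPK KO DMSO (SD, n = 4), a log2 fold change of -1.14. Smchd1 (-0.34) and Zfp445 (-0.32) were lower too, and Hells (0.41) and Dnmt3b (0.28) were higher. The other gene called higher was Tet1, an enzyme that oxidises methylated cytosine, which was named after its values were seen, and it was at 0.682 ± 0.12 CPM in WT DMSO and 4.6 ± 0.781 CPM in AMPK KO DMSO (2.74, adjusted p = 1.2e-11). Under MK-8722 in WT, Ctcf (-0.26) and Uhrf1 (-0.24) were below the fold change of a call at adjusted p values of 3.1e-05 and 5.3e-05, and in AMPK KO Zfp57 rose (0.42), with 15.7% and 1.56% of all genes called. Under torin1 3 rose and 2 fell in WT and 4 rose and 2 fell in AMPK KO (47.6% and 43.5% of all genes called), led by Ezh2 (0.57) and Tet3 (-0.56) in WT and by Tet3 (-0.6) and Ezh2 (0.43) in AMPK KO. DNA methylation was not measured in these libraries, and the share of these genes in the levels of the 10 imprinted genes was not tested.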

How the data were processed

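Poly(A) RNA of 24 MEF libraries was sequenced in pairs of reads. Per the labels and the study's methods, the authors aligned reads to GRCm38 with STAR and quantified them with Salmon in the nf-core/rnaseq workflow. The deposited gene table holds estimated counts, which need not be whole, and the authors' transcript tables hold estimated counts and TPM, and the strand setting of the counting is not given in the sources used here. Estimated counts were rounded and tested with edgeR 4.0.16 in R 4.3.3 (TMM scaling, its expression filter, quasi-likelihood F test, 1 mean per group over all 6 groups). Benjamini-Hochberg adjustment ran over all 15828 genes tested, and genes were called at an adjusted p below 0.05 where the fold change reached 1.2 or more, as in the study's methods. CPM used TMM-scaled totals, correlations a prior count of 2, and SE is that of the log2 fold change from the F statistic. Transcript shares were compared with exact permutation tests in scipy 1.17.1. The test script was tested on simulated data.

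The labels give passage and replicate number. Libraries of the same passage and line deviated together. The correlation of deviations was above 0.1 in 15 of 24 such pairs, against 0 of 72 pairs of other passages. Pairs of the same replicate number passed 0.1 in 5 of 60 cases, so the replicate numbers were not taken as pairs. The main tests held no block, so they did not use the pairing by passage. Passage within the line was the block in the passage test and in the fits described as having passage in the model. The 4 libraries of a group were 4 passages of 1 source of cells, so p-values measure the spread between passages of that source. No 2 libraries of a group agreed within sampling noise.

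The 10 genes, and the lists of other imprinted genes, the IGF axis, imprint maintenance and cell type markers, were chosen with earlier results of these data known. All 10 genes are named. Of each of the first 3 lists, up to 3 called genes per direction between the lines are named, at a mean of at least 5 CPM. The 2 with the largest called change per drug comparison are named at the same mean. Rian, Nnat, Airn and Tet1, singled out after their values were seen, are named besides. Alternatives were DESeq2 1.42.0 and its size factors, library size alone, no filter, a mean of at least 1 CPM, a length offset, blocks by passage or replicate number, a fold change of at least 1.5, adjusted p alone, the compared groups alone, each replicate left out and, added after seeing the data, the libraries of passages 12, 13 or 16 left out.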

Additional observations from a re-analysis of the deposited data

Results flagged for a closer look

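In 5 of the 60 combinations of gene and group, 1 library stood far from the other 3, and chance alone gives about 1 in 20. Igf2 was at 2.65 CPM in AMPK KO DMSO replicate 3, against 0.556 to 0.906 CPM in the others, and at 3.37 CPM in AMPK KO MK-8722 replicate 2, against 0.67 to 0.998 CPM. Grb10 was at 286 CPM in AMPK KO MK-8722 replicate 2, against 211 CPM or slightly more in the others. These 3 values came from libraries of passage 16. Cdkn1c was at 8.83 CPM in AMPK KO DMSO replicate 1, of passage 19, against 11.4 to 11.6 CPM. Mest was at 0.0628 CPM in WT DMSO replicate 4, against 0.0351 to 0.0366 CPM, which is 2 counts against 1.

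In 4 cases the response to a drug differed between the lines by the test of the difference in edgeR. Under MK-8722 the AMPK KO response minus the WT response was -1.43 on the log2 scale for Plagl1 (adjusted p = 0.00026), 0.51 for Grb10 (adjusted p = 0.0089) and 0.8 for Ndn (adjusted p = 0.035). Under torin1 it was -0.5 for Grb10 (adjusted p = 0.019). Of all genes, 12.8% were called in this test under MK-8722 and 7.07% under torin1. The Ndn call held in 18 of 30 alternative fits, and those of Plagl1 and Grb10 held in at least 29.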

How the results depend on the processing

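The 29 called differences between the lines were called in the same direction in 638 of 638 alternative fits. Over all comparisons, 2076 alternative values of single genes included 42 lost calls, 43 gained calls and 0 reversals of a called direction. The number of members called moved most for the drugs. Under MK-8722 in WT it was 1 without the passage 12 libraries. Under MK-8722 in AMPK KO it was 2 with no filter, with the replicate block by passage and with DESeq2, 0 at a fold change of 1.5 and in the compared groups alone, and 0 to 2 with a replicate left out. Under torin1 it was 8 in WT and 5 in AMPK KO with the replicate block by passage, and 2 in WT at a fold change of 1.5. For the difference of the torin1 response between the lines it was 2 with DESeq2, its size factors, library size alone, a mean of at least 1 CPM, a length offset or the compared groups alone, 4 with the replicate block by passage, 0 at a fold change of 1.5, and 1 to 2 with a replicate left out. The passage test called 6 members in WT with no filter, and 3 to 7 in AMPK KO with a replicate left out. The causes were not tested. The replicate block by replicate number, which does not pair the libraries, moved no count by over 1.5 times. With library size alone, the all-gene median of the line difference in DMSO went from 0.02 to 0.15 (log2). Mest in WT (0 to 3 counts per library) and Meg3 in AMPK KO (0 to 13) are limited by depth.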
